A study of Mus musculus with 6 samples.

Results

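Inflammatory chemokines and cytokines were followed in dorsal hippocampus after knockdown of the long non-coding RNA *Snhg11*. The 10 genes were listed by name: the CC chemokines *Ccl2*, *Ccl3*, *Ccl4*, *Ccl5* and *Ccl12*, the CXC chemokines *Cxcl10* and *Cxcl16*, and the cytokines *Il1b*, *Tnf* and *Il6*, out of 55401 genes in the count files. No threshold on their levels was used to choose them, but the list was chosen with earlier results of these data known. Counts of members set beside shares of all genes are therefore descriptions. All mice were WT males of 4 months, euploid littermates of the Ts65Dn line on a B6EiC3 background. The Control-ASO group (3 mice) received a scrambled antisense oligonucleotide (ASO) and the Snhg11-ASO group (3 mice) an ASO against exon 5 of *Snhg11*. Both were gapmers with 2'MOE and phosphorothioate chemistry, which direct RNase H to the bound transcript, given at 50 µg per hemisphere into both dorsal dentate gyri. Dorsal hippocampus was taken 3 days later and total RNA without ribosomal RNA was sequenced with paired reads of 50 bases. Every mouse had thus been injected with an oligonucleotide, and no uninjected sample was analysed here.

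Chemokines are small secreted proteins that bind G protein-coupled receptors and draw leukocytes along a gradient. IL-1β, TNF and IL-6 are the classical early cytokines of innate immunity, made in the brain mainly by microglia and by infiltrating myeloid cells, and to a lesser extent by astrocytes and endothelium. Transcription of many of these genes is switched on within hours by NF-κB, and that of *Cxcl10* also by interferons through STAT and IRF factors.

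The chemokine families are defined by the spacing of a pair of cysteines near the start of the mature protein, adjacent in CC chemokines and separated by 1 residue in CXC chemokines. The 30 coding bases around this pair, from the GENCODE M21 transcripts on GRCm38, are shown for 6 of the chemokine genes, since this is the motif that names the families. Capitals mark the codons from the one cysteine to the other.
Ccl2: gccccactcaccTGCTGCtactcattcacc
Ccl4: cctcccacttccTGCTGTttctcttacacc
Ccl5: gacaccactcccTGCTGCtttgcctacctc
Ccl12: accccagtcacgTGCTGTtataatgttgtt
Cxcl10: aggacggtccgcTGCAACTGCatccatatc
Cxcl16: gtcgctggaagtTGTTCTTGTgatcgtacc
The 4 CC genes shown carried adjacent cysteine codons and the 2 CXC genes had 1 codon between them. The pair began at residue 34 of the precursor in *Ccl2* and *Ccl4*, at residue 33 in *Ccl5* and *Ccl12*, at residue 30 in *Cxcl10* and at residue 35 in *Cxcl16*.

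All 10 are protein-coding genes, and 6 of them lie on chromosome 11 of GRCm38. *Ccl2* (ENSMUSG00000035385, chr11:82035571-82037453, plus strand) and *Ccl12* (ENSMUSG00000035352, chr11:82101845-82103400, plus strand) sit in one chemokine cluster. *Ccl5* (ENSMUSG00000035042, chr11:83525778-83530518, minus strand), *Ccl3* (ENSMUSG00000000982, chr11:83647844-83649355, minus strand) and *Ccl4* (ENSMUSG00000018930, chr11:83662584-83664683, plus strand) follow on the same chromosome. *Cxcl16* (ENSMUSG00000018920, chr11:70453983-70459984, minus strand) lies apart from them. *Cxcl10* (ENSMUSG00000034855, chr5:92346638-92348889, minus strand) and *Il6* (ENSMUSG00000025746, chr5:30013114-30019981, plus strand) are on chromosome 5. *Il1b* (ENSMUSG00000027398, chr2:129364570-129371139, minus strand) is on chromosome 2 and *Tnf* (ENSMUSG00000024401, chr17:35199381-35202007, minus strand) on chromosome 17.

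Promoter windows from 250 bases before to 50 after the annotated start were available from RefSeq (GRCm38.p6) for *Ccl3*, *Ccl12*, *Cxcl10*, *Il1b*, *Tnf* and *Il6*, and were searched on both strands for the NF-κB consensus, for the interferon element (GAAA and a further GAAA after any 2 bases), for the AP-1 motif TGANTCA and for TATAAA. *Cxcl10* and *Il6* are printed because they were the only windows of the 6 with a match to the NF-κB consensus. Capitals mark NF-κB and interferon element matches.
Cxcl10, minus strand, chr5:92348840-92349139: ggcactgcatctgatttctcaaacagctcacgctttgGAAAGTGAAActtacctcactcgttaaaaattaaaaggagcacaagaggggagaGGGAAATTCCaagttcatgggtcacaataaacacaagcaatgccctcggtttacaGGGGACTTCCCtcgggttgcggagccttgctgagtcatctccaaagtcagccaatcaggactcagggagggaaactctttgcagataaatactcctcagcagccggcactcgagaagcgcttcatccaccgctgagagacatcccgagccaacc
Il6, plus strand, chr5:30012864-30013163: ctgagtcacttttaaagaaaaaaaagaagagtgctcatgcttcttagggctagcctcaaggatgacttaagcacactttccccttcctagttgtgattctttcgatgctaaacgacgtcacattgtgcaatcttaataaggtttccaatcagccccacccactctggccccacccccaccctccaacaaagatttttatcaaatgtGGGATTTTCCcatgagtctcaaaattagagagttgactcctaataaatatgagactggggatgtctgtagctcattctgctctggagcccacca
The *Cxcl10* window held GAAAGTGAAA at position -213 from the start, an NF-κB match at -159 and overlapping NF-κB matches at -104 and -103, with TGAGTCA at -74. The *Il6* window held an NF-κB match at -44 and TGAGTCA at -249. *Ccl12*, *Il1b* and *Tnf* held TATAAA at -31, -31 and -29, and *Ccl3* held none of the 4 motifs. Over all 32851 promoter windows of this length, 8.46% held the NF-κB consensus, 3.44% the interferon element, 7.81% the AP-1 motif and 13.6% TATAAA. A match describes letters in these windows and not a site in use.

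The libraries held 28951250 to 43997537 read pairs on genes, with each Snhg11-ASO library deeper than each Control-ASO library. Levels are given as CPM, the read pairs on a gene scaled to the library's total on tested genes and its TMM factor. *Snhg11* itself was at 551, 436 and 209 CPM in the Control-ASO mice and at 139, 65.4 and 69.4 CPM in the Snhg11-ASO mice, a log2 fold change of -2.13 (SE 0.43). The 9 marker genes of hippocampal neurons were all detected and summed to 1122 to 1449 CPM in every sample. The sums of 8 choroid plexus genes varied more. They were 1907, 36.7 and 1235 CPM in the Control-ASO mice and 1313, 124 and 68.1 CPM in the Snhg11-ASO mice. Snhg11-ASO replicate 1 stood apart from the other samples: 8 neutrophil genes summed to 45.6 CPM in it and to 0.268 to 2.62 CPM elsewhere, 14 genes of monocytes and macrophages to 508 against 99.1 to 126 CPM, and 12 microglial identity genes to 209 against 333 to 674 CPM. The members' comparisons are therefore given with and without that sample. Leaving it out also shifted the choroid plexus genes, whose median log2 fold change went from -0.70 to -3.09. Whether this bears on the members was not tested. The counts are from whole tissue, in which fewer cells of a type and less RNA per cell cannot be told apart.

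Mean CPM of all 10 genes was higher in the Snhg11-ASO group than in the controls, and 8 of the 10 were without Snhg11-ASO replicate 1, with *Ccl5* and *Il1b* as the exceptions. None of the 8 genes tested in edgeR reached an adjusted p of 0.05 (0% of all genes tested did). DESeq2 called 1 member (*Ccl2*), where 0.549% of the 18570 genes with an adjusted p were called as higher. *Il6* had no adjusted p in DESeq2 and could not be called. Summed over the 10 genes, the Control-ASO mice lay between 11.9 and 13.2 CPM and the Snhg11-ASO mice were at 56.7, 25.5 and 16.1 CPM. The sums of the groups did not overlap, and the spread within the Snhg11-ASO group exceeded the distance between its lowest sample and the controls. The highest value of a gene was in Snhg11-ASO replicate 1 for 8 of the 10 genes and in Snhg11-ASO replicate 2 for *Ccl12* and *Cxcl16*. The lowest value of each of the 10 genes was in a Control-ASO sample. Snhg11-ASO replicate 1 exceeded every control for 9 genes, replicate 2 for 7 and replicate 3 for 6.

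**Figure D1:**
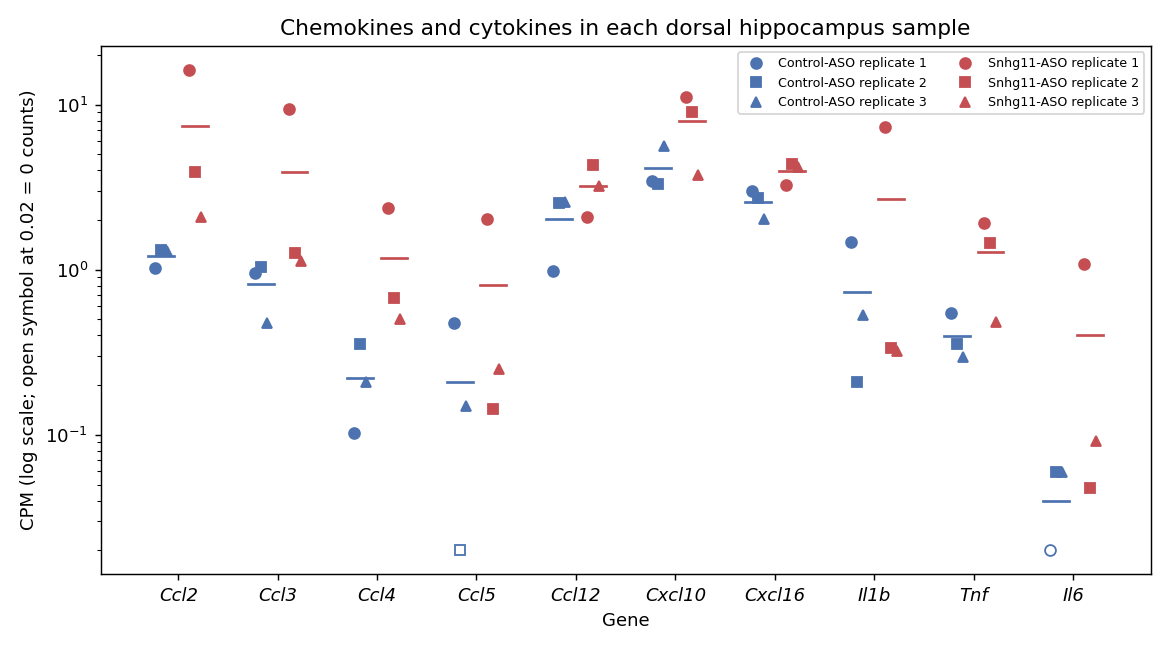
CPM of the 10 genes in each sample on a log scale, with Control-ASO in blue, Snhg11-ASO in red, replicates by symbol and group means as lines. Open symbols at the bottom stand for 0 counts. Snhg11-ASO replicate 1 is the highest point for 8 genes, and the groups do not overlap for *Ccl2*, *Ccl3*, *Ccl4* and *Cxcl16*.

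*Ccl2*, the main monocyte attractant acting through CCR2, was at 1.02, 1.31 and 1.31 CPM in the Control-ASO mice (30, 44 and 44 counts) and at 16.2, 3.92 and 2.08 CPM in the Snhg11-ASO mice (618, 164 and 91 counts). All 3 Snhg11-ASO samples lay above all controls, by 13.4, 3.24 and 1.72 times the control mean. The mean went from 1.21 ± 0.166 (SD, n = 3) to 7.41 ± 7.68 CPM (SD, n = 3), with a log2 fold change of 2.61 (SE 0.75). Its edgeR p was 0.507 after Benjamini-Hochberg adjustment over the 19969 genes tested. Without Snhg11-ASO replicate 1 the log2 fold change was 1.30. *Ccl2* was also the one member that passed DESeq2, with a Benjamini-Hochberg adjusted p of 0.00975, where 0.549% of 18570 genes passed with higher values in Snhg11-ASO samples. Without Snhg11-ASO replicate 1 it narrowly missed the threshold of 0.05 there, with a DESeq2 Benjamini-Hochberg adjusted p of 0.0536.

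*Ccl12*, a second CCR2 ligand found in mouse, lies in the same cluster as *Ccl2* but had another pattern. It was at 0.986, 2.53 and 2.58 CPM in the Control-ASO mice and at 2.07, 4.28 and 3.23 CPM in the Snhg11-ASO mice, where Snhg11-ASO replicate 1 was the lowest of its group and inside the control range. Its log2 fold change was 0.65 (SE 0.43, edgeR Benjamini-Hochberg adjusted p = 0.733). It was 0.88 without that sample, 0.32 without Control-ASO replicate 1, which was the lowest control, and 0.38 without Snhg11-ASO replicate 2. *Ccl12* and *Cxcl16* were the genes for which the sample with the most *Ccl2* was the lowest of its group.

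*Ccl3* and *Ccl4*, which encode the inflammatory macrophage proteins MIP-1α and MIP-1β, differed in how far they rested on a single sample. *Ccl3* was at 0.952, 1.04 and 0.475 CPM in the Control-ASO mice and at 9.36, 1.27 and 1.12 CPM in the Snhg11-ASO mice. The groups did not overlap, but Snhg11-ASO replicates 2 and 3 exceeded the highest control only slightly. Its log2 fold change of 2.25 (SE 0.89, edgeR Benjamini-Hochberg adjusted p = 0.592) was 0.54 without Snhg11-ASO replicate 1. *Ccl4* was at 0.102, 0.357 and 0.208 CPM (3, 12 and 7 counts) in the Control-ASO mice and at 2.36, 0.670 and 0.504 CPM (90, 28 and 22 counts) in the Snhg11-ASO mice. Here all 3 Snhg11-ASO samples were clear of the controls, at 10.6, 3.02 and 2.27 times the control mean. The log2 fold change of *Ccl4* was 2.37 (SE 0.74, edgeR Benjamini-Hochberg adjusted p = 0.534), and 1.37 without Snhg11-ASO replicate 1. With 3 to 12 counts in the controls, *Ccl4* passed the filter on low counts through its Snhg11-ASO samples.

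*Ccl5* (RANTES), a chemokine of T cells and monocytes, was near the limit of detection in most samples. The Control-ASO mice had 14, 0 and 5 counts (0.476, 0 and 0.148 CPM) and the Snhg11-ASO mice 77, 6 and 11 counts (2.02, 0.144 and 0.252 CPM). The 0 counts of Control-ASO replicate 2 allow up to 0.0892 CPM (3 counts, counting error only). Snhg11-ASO replicate 1 was high, and the other Snhg11-ASO samples were inside the control range. *Ccl5* did not pass the filter, and an exact two-sided permutation test on its CPM gave p = 0.6, where 3 samples against 3 cannot go below 0.1.

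Of the CXC chemokines, *Cxcl10* encodes a CXCR3 ligand induced by interferons. It was at 3.43, 3.30 and 5.61 CPM in the Control-ASO mice and at 11.1, 8.97 and 3.76 CPM in the Snhg11-ASO mice. Snhg11-ASO replicates 1 and 2 were above all controls and replicate 3 was inside their range. The log2 fold change was 0.95 (SE 0.42, edgeR Benjamini-Hochberg adjusted p = 0.628), and 0.62 without Snhg11-ASO replicate 1. *Cxcl10* shares 133 exonic bases with *Art3* on the opposite strand.

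*Cxcl16*, made as a membrane-bound ligand of CXCR6 that is shed by ADAM10, had the smallest difference of the 8 genes tested and the smallest standard error. It was at 2.99, 2.71 and 2.02 CPM in the Control-ASO mice and at 3.25, 4.38 and 4.21 CPM in the Snhg11-ASO mice. The groups did not overlap, and Snhg11-ASO replicate 1 was the lowest of its group. The mean went from 2.57 ± 0.50 to 3.95 ± 0.609 CPM (SD, n = 3 each), a log2 fold change of 0.62 (SE 0.24, edgeR Benjamini-Hochberg adjusted p = 0.586). Without Snhg11-ASO replicate 1 it was 0.74. *Cxcl16* shares 552 exonic bases with *Zmynd15* on the opposite strand. In the unstranded counts, which are not a sum of the 2 strands, its groups overlapped. Its highest unstranded count was 165, below its highest count of 184 on the reverse strand.

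*Tnf*, which encodes the cytokine that signals through TNFR1 and TNFR2, was at 0.544, 0.357 and 0.297 CPM in the Control-ASO mice (16, 12 and 10 counts) and at 1.91, 1.46 and 0.481 CPM in the Snhg11-ASO mice (73, 61 and 21 counts). As for *Cxcl10*, Snhg11-ASO replicates 1 and 2 were above all controls and replicate 3 was not. Its log2 fold change was 1.68 (SE 0.55, edgeR Benjamini-Hochberg adjusted p = 0.545), and 1.28 without Snhg11-ASO replicate 1.

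*Il1b*, the gene of pro-IL-1β, was at 1.46, 0.208 and 0.534 CPM in the Control-ASO mice (43, 7 and 18 counts) and at 7.34, 0.335 and 0.321 CPM in the Snhg11-ASO mice (280, 14 and 14 counts). Snhg11-ASO replicate 1 was far above every control, and the other Snhg11-ASO samples were below the control mean, at 0.456 and 0.436 times its value. The log2 fold change of 1.86 (SE 1.32, edgeR Benjamini-Hochberg adjusted p = 0.747) turned to -1.13 without that sample. *Il1b* was the one gene of the 8 tested whose direction depended on a single library. It shares 25 exonic bases with the antisense gene *Il1bos*.

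*Il6*, which encodes the cytokine that signals through IL-6Rα and gp130, had 0, 2 and 2 counts in the Control-ASO mice and 41, 2 and 4 counts in the Snhg11-ASO mice. Only Snhg11-ASO replicate 1 was above the detection floor by more than a few counts. It was at 1.08 CPM (95% exact binomial interval 0.772 to 1.46, counting error only). The 0 counts of Control-ASO replicate 1 allow up to 0.102 CPM. *Il6* did not pass the filter, and an exact two-sided permutation test on its CPM gave p = 0.3.

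Of the 10 genes, 8 passed the filter on low counts, and none was called by edgeR at an adjusted p of 0.05, as for the 19969 genes tested, of which 0% were called. At an unadjusted edgeR p under 0.05, *Ccl2*, *Ccl3*, *Ccl4*, *Cxcl16* and *Tnf* were higher in Snhg11-ASO samples, 5 genes, where 3.68% of all genes tested were higher and 4.43% lower. The groups did not overlap for 4 genes (*Ccl2*, *Ccl3*, *Ccl4* and *Cxcl16*), where 7.73% of all genes tested lay above the controls in every Snhg11-ASO sample. Without Snhg11-ASO replicate 1, 3 genes (*Ccl2*, *Ccl4* and *Cxcl16*) were higher at an unadjusted p under 0.05, where 4.41% of genes were, and 5 members did not overlap, with *Ccl12* added, where 14.7% of genes lay above the controls in both remaining Snhg11-ASO samples. The count of 5 also went to 3, 2 and 3 without Control-ASO replicates 1, 2 and 3, for which the share of all genes is not given here. The median log2 fold change of the 8 tested genes was 1.77 with all samples and 0.81 without Snhg11-ASO replicate 1, beside 0.01 and 0.00 over all genes tested. *Ccl4* is among the 8 on account of its higher group, so the median only describes them.

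**Figure D2:**
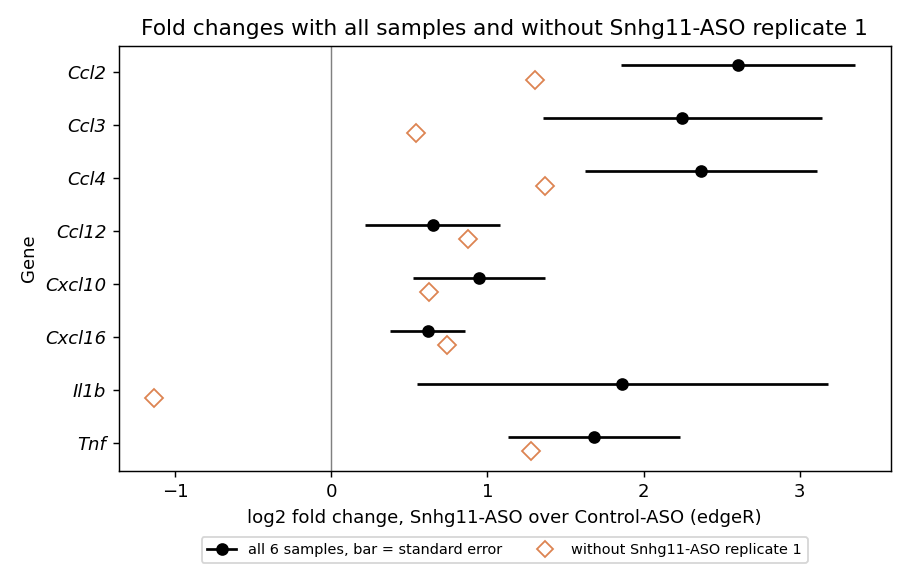
log2 fold change (Snhg11-ASO over Control-ASO, edgeR) of the 8 tested genes, with all 6 samples (filled circles, bars are standard errors) and without Snhg11-ASO replicate 1 (open diamonds). Without that sample *Ccl2*, *Ccl3* and *Ccl4* move to 1.30, 0.54 and 1.37 and *Il1b* to -1.13, while *Ccl12* and *Cxcl16* move up to 0.88 and 0.74.

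On a log2 CPM scale centred on each gene's mean over the 6 samples, Snhg11-ASO replicate 1 was at 2.67 for *Ccl2*, 2.72 for *Ccl3*, 2.79 for *Ccl5*, 3.22 for *Il1b* and 2.90 for *Il6*. It was at -0.20 for *Ccl12* and 0.04 for *Cxcl16*. *Cxcl10* and *Tnf* were high in both replicates 1 and 2, at 1.04 and 0.73 for *Cxcl10* and at 1.45 and 1.07 for *Tnf*. Among the controls, replicate 1 was the highest for *Il1b* (0.93) and *Ccl5* (0.82) and the lowest for *Ccl2* (-1.25), *Ccl4* (-1.69), *Ccl12* (-1.23) and *Il6* (-1.47).

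**Figure D3:**
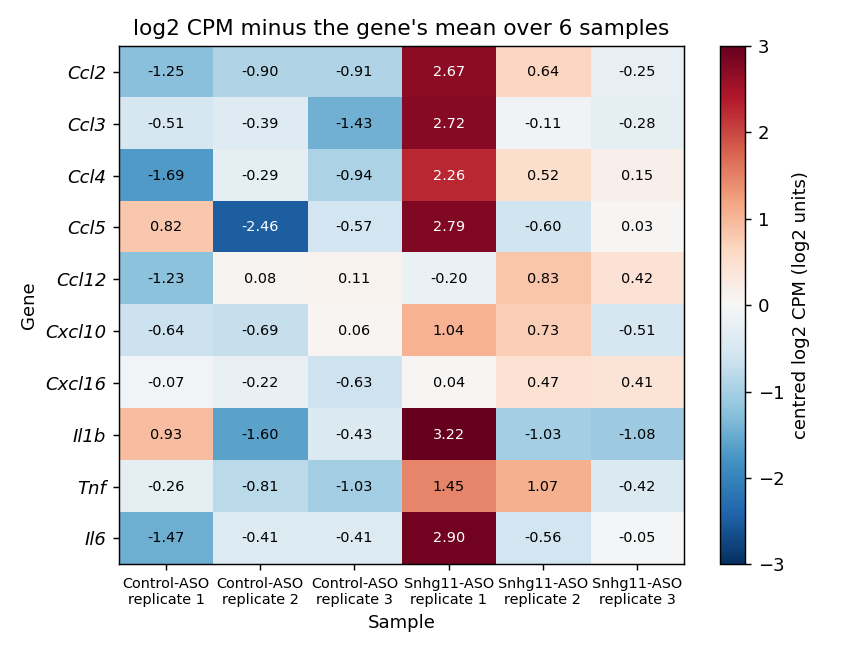
log2 CPM of each gene (rows) in each sample (columns) minus the gene's mean over the 6 samples, in log2 units. Snhg11-ASO replicate 1 is between 2.26 and 3.22 for *Ccl2*, *Ccl3*, *Ccl4*, *Ccl5*, *Il1b* and *Il6*, and near 0 for *Ccl12* (-0.20) and *Cxcl16* (0.04).

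Per kilobase of exonic length, the order of mean levels in the Control-ASO mice was *Ccl12* (3.78 ± 1.69 CPM per kb, SD, n = 3), *Cxcl10* (1.83 ± 0.576), *Ccl3* (1.07 ± 0.397), *Ccl2* (1.06 ± 0.146), *Cxcl16* (0.851 ± 0.165), *Il1b* (0.385 ± 0.341), *Ccl4* (0.337 ± 0.194), *Tnf* (0.244 ± 0.0786), *Ccl5* (0.217 ± 0.254) and *Il6* (0.0163 ± 0.0141). Of neighbours in this order, only *Cxcl10* and *Ccl3* had ranges that did not overlap. In the Snhg11-ASO samples *Ccl2* had the highest mean level at 6.51 ± 6.75 CPM per kb, followed by *Ccl12* at 5.95 ± 2.06, *Ccl3* at 5.11 ± 6.16 and *Cxcl10* at 3.53 ± 1.68 (SD, n = 3). There all neighbours in the order overlapped, and *Il6* was again the lowest at 0.167 ± 0.239 CPM per kb. Exonic length was that of all annotated exons of a gene merged, which for *Ccl2* (1138 bp) includes a retained intron. For *Cxcl10* the merged exons form 1 block over its whole span of 2252 bp, so any intron counts as exon and its level per kilobase may be understated. The place of these genes in the order, and the gap between *Cxcl10* and *Ccl3*, depend on these lengths.

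The receptors and inhibitors of these ligands were read next, as a list of 13 genes of which 11 passed the filter. None was called by edgeR at an adjusted p of 0.05, all 11 had a log2 fold change above 0 (median 0.75, and 0.27 without Snhg11-ASO replicate 1), and 3 were higher at an unadjusted p under 0.05 (3.68% of all genes were), and 2 without that sample (4.41%). The TNF receptors did not overlap between the groups. *Tnfrsf1a* (TNFR1) was at 6.56, 7.73 and 7.72 CPM in the Control-ASO mice and at 28.3, 9.67 and 11.1 CPM in the Snhg11-ASO mice, a log2 fold change of 1.15 (SE 0.41, edgeR Benjamini-Hochberg adjusted p = 0.562) and of 0.50 without replicate 1. *Tnfrsf1b* (TNFR2) was at 6.66, 5.41 and 5.25 CPM and at 24.7, 7.66 and 7.51 CPM, a log2 fold change of 1.20 (SE 0.48, edgeR Benjamini-Hochberg adjusted p = 0.595) and of 0.40 without replicate 1.

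On the IL-1 side the extremes were the antagonists. *Il1rn*, the secreted receptor antagonist of IL-1, was at 1.16, 0.149 and 0.0594 CPM in the Control-ASO mice and at 26.6, 0.790 and 0.298 CPM in the Snhg11-ASO mice. With 34, 5 and 2 counts against 1015, 33 and 13, it passed the filter through its Snhg11-ASO samples. The median of the 11 receptors and inhibitors therefore only describes them. *Il1r2*, the decoy receptor, was at 1.02, 0.386 and 0.297 CPM and at 17.5, 0.479 and 0.321 CPM. Both shared with *Il1b* a single high sample, Snhg11-ASO replicate 1, and a highest control in replicate 1. Their log2 fold changes of 4.37 and 3.43 were 0.30 and -0.48 without the high sample. The signalling receptor *Il1r1* (log2 fold change 0.53, SE 0.31, and 0.14 without that sample) and its partner *Il1rap* (0.17, SE 0.11) had smaller values, as did *Il6st*, the gp130 gene (0.15, SE 0.12, and 0.043 without it).

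Of the chemokine receptors, *Ccr1*, which binds CCL3 and CCL5, was at 1.33, 0.535 and 0.208 CPM in the Control-ASO mice and at 16.3, 0.742 and 0.893 CPM in the Snhg11-ASO mice. *Ccr2*, the receptor of CCL2 and CCL12, was at 2.11, 0.684 and 1.51 CPM against 2.28, 2.23 and 1.24 CPM, and these groups overlapped. *Cxcr3* and *Cxcr6*, the receptors of CXCL10 and CXCL16 on lymphocytes, were at most 0.160 CPM in any sample and did not pass the filter. Only 1 of 13 lymphocyte marker genes passed it, and the list summed to 0.629 to 1.99 CPM.

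Next to the members on chromosomes 11 and 5 lie 7 further chemokine genes, of which 3 passed the filter. *Ccl7*, whose product is a further CCR2 ligand, was at 0.544, 0.654 and 0.445 CPM in the Control-ASO mice and at 5.40, 1.08 and 0.802 CPM in the Snhg11-ASO mice, without overlap. Its log2 fold change was 2.14 (SE 0.77, edgeR Benjamini-Hochberg adjusted p = 0.563), and 0.77 without replicate 1. *Ccl6* and *Ccl9* were high in Snhg11-ASO replicate 1 alone, at 30.4 and 19.5 CPM, with every other sample at or under 2.69 CPM. *Ccl8*, *Ccl11*, *Cxcl9* and *Cxcl11* did not pass the filter, and the largest value among them was 1.68 CPM for *Cxcl9*, in Snhg11-ASO replicate 1.

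Wider lists of the same pathways were read in the same way. Of all genes tested, 3.68% were higher at an unadjusted edgeR p under 0.05, and 4.41% without Snhg11-ASO replicate 1. Of 42 further chemokines and cytokines (the neighbours included), 25 passed the filter, with 16 log2 fold changes above 0 and 9 below, a median of 0.63 and 6 higher at an unadjusted edgeR p under 0.05. With Snhg11-ASO replicate 1 left out, 5 were higher and the median was 0.25. *Lif*, an IL-6 family cytokine, had the largest of them at 2.92 (0.45 without that sample) and was at 28.4 CPM in Snhg11-ASO replicate 1 and at 1.16 to 2.01 CPM in the other samples. *Ifng* had no count in any sample. Among 20 genes that process cytokines or sense microbial and cell damage signals, 8 were higher at an unadjusted p under 0.05 and the median was 0.67, and 6 and 0.25 without Snhg11-ASO replicate 1. *Tlr2*, a receptor for bacterial lipoproteins, was the largest with all 3 Snhg11-ASO samples clear of the controls: 3.88, 4.10 and 3.30 CPM against 11, 9.0 and 7.19 CPM, with a log2 fold change of 1.27 (SE 0.21, edgeR Benjamini-Hochberg adjusted p = 0.308) and 1.11 without replicate 1.

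Among 20 NF-κB subunits and feedback genes, 19 log2 fold changes were above 0, 7 genes were higher at an unadjusted edgeR p under 0.05, and the median was 0.76. Without Snhg11-ASO replicate 1 these were 5 genes and 0.23. *Socs3*, the feedback inhibitor of gp130 signalling, was at 5.0, 2.91 and 3.38 CPM in the Control-ASO mice and at 80.7, 6.53 and 6.55 CPM in the Snhg11-ASO mice, without overlap. *Zc3h12a*, whose product degrades *Il6* mRNA, was at 7.42 CPM in Snhg11-ASO replicate 1 and at 0.564 to 1.10 CPM in the others. For the 16 interferon response genes the median was 1.10 with all samples and 1.17 without Snhg11-ASO replicate 1, with 8 and 7 genes higher at an unadjusted p under 0.05. They summed to 112, 311 and 386 CPM in the Control-ASO mice and to 550, 684 and 519 CPM in the Snhg11-ASO mice. Control-ASO replicate 1 was thus far below the other controls. *Gbp2*, an interferon-induced GTPase, was at 7.61, 10.9 and 15.1 CPM against 60.6, 25.8 and 25.5 CPM. *Rsad2* (viperin) was at 5.74, 10.3 and 12.4 CPM against 45.4, 25.3 and 17.6 CPM. In both genes all Snhg11-ASO samples were above all controls, unlike *Cxcl10*, whose Snhg11-ASO replicate 3 was not. Without Control-ASO replicate 1 the log2 fold change went from 1.73 to 1.51 for *Gbp2* and from 1.63 to 1.36 for *Rsad2*. No gene of these lists passed the edgeR test at an adjusted p of 0.05. DESeq2 called *Tlr2* (Benjamini-Hochberg adjusted p = 5.6e-05), *Gbp2* (0.0022) and *Rsad2* (0.0063), also without any 1 of the Snhg11-ASO samples. Whether the lists differed from each other was not tested.

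**Figure D4:**
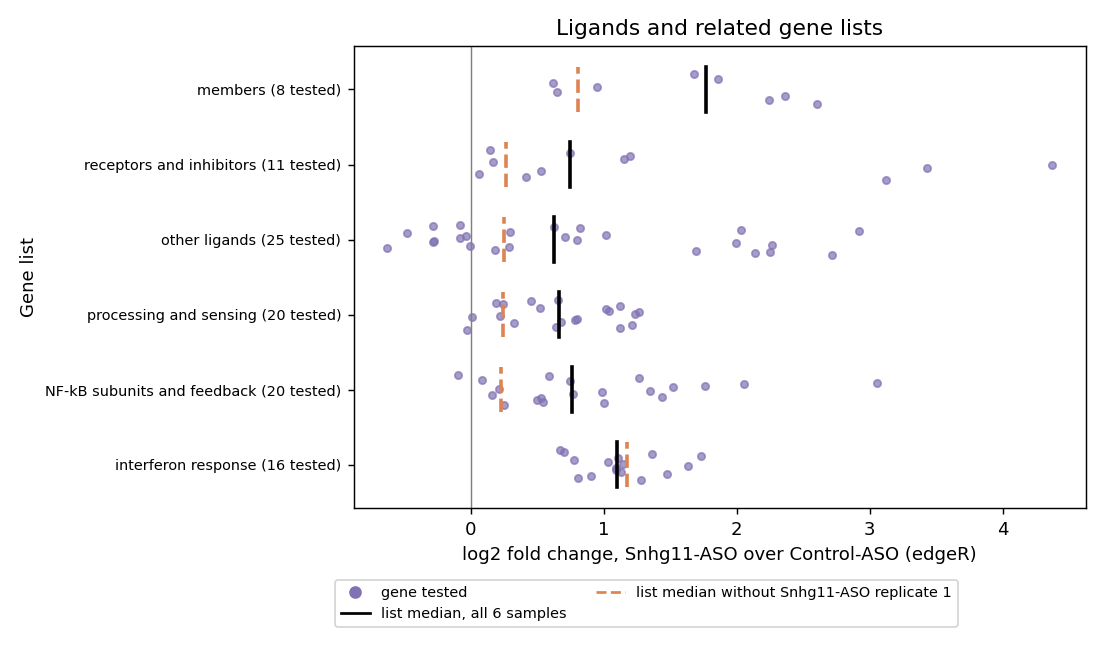
log2 fold change (Snhg11-ASO over Control-ASO, edgeR) of each tested gene in the members and 5 related lists, with the list median over all 6 samples (solid line) and without Snhg11-ASO replicate 1 (dashed). The medians of the members go from 1.77 to 0.81, and those of the interferon response genes from 1.10 to 1.17.

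Levels of cell type markers moved with the members in Snhg11-ASO replicate 1. Of 8 neutrophil genes, 2 passed the filter, and *S100a8* was at 1.05, 0.0297 and 0.386 CPM in the Control-ASO mice and at 22.3, 0.168 and 0.183 CPM in the Snhg11-ASO mice. Of 14 genes of monocytes and macrophages, 13 had log2 fold changes above 0 (median 1.36, and 0.12 without replicate 1). *Arg1* was at 72.1 CPM in Snhg11-ASO replicate 1 and at most 3.91 CPM elsewhere, and *Chil3* at 41.6 and at most 2.14 CPM. Of 12 microglial identity genes, 9 had log2 fold changes below 0 and 3 above (median -0.13, and 0.25 without replicate 1). The lowest was *Siglech*, at 1.21 CPM in Snhg11-ASO replicate 1 and at 9.55 to 19.1 CPM elsewhere. The highest was *C1qa*, with a log2 fold change of 0.50 (SE 0.39), and 0.79 without replicate 1. Control-ASO replicate 1, the control with the most *Il1b*, *Il1rn* and *Ccr1*, had the highest neutrophil sum of the controls (2.62 CPM). In Snhg11-ASO replicates 2 and 3 the neutrophil sums were 0.909 and 0.618 CPM and the monocyte and macrophage sums 126 CPM each, beside 99.1 to 124 CPM in the controls. In both of these samples *Ccl2*, *Ccl3*, *Ccl4*, *Ccl12* and *Cxcl16* were above all controls, and so were the monocyte and macrophage sums. *Ccl5*, *Cxcl10*, *Il1b*, *Tnf* and *Il6* were not above the controls in both. Of all genes tested without Snhg11-ASO replicate 1, 14.7% lay above the controls in both. The 10 reactive astrocyte genes summed to 610.1, 2389.9 and 1708 CPM in the Control-ASO mice and to 2169.6, 2931 and 3167 CPM in the Snhg11-ASO mice. The part of these cell types in the levels of the chemokines and cytokines was not tested.

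**Figure D5:**
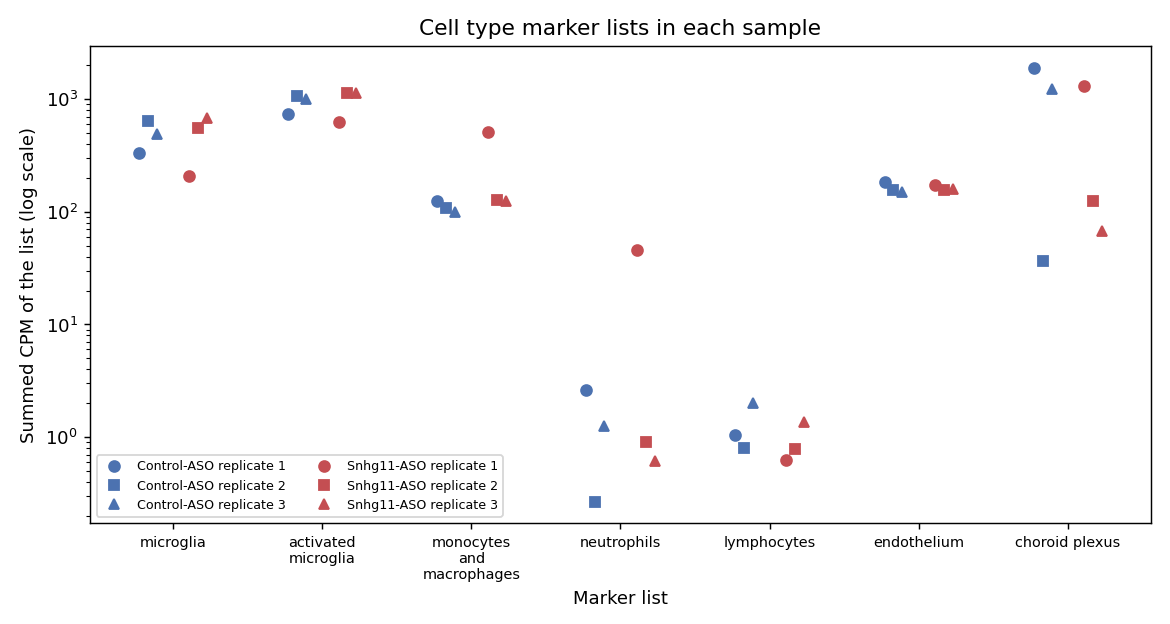
Summed CPM of 7 cell type marker lists in each sample on a log scale, Control-ASO in blue and Snhg11-ASO in red, replicates by symbol. Snhg11-ASO replicate 1 is the highest for neutrophils (45.6 CPM) and for monocytes and macrophages (508 CPM) and the lowest for microglia (209 CPM).

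The genes whose course over the 6 samples was nearest to the mean of the 9 members with a mean of at least 10 counts were *Inhba*, *Tnfaip2*, *Loxl1*, *Tnfrsf23*, *Gm12932* and *Serpina3h*, by the root mean square difference of centred log2 CPM. The members' mean was at -0.43, -0.81 and -0.64 in the Control-ASO mice and at 1.78, 0.28 and -0.17 in the Snhg11-ASO mice. *Inhba*, which encodes the activin A subunit, was nearest with a difference of 0.0628, at -0.46, -0.68 and -0.71 and at 1.80, 0.24 and -0.19. The other 5 had differences of 0.139 to 0.165 log2 units. The likeness is a description over 6 samples and rests largely on the high value in Snhg11-ASO replicate 1.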

How the data were processed

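Gene expression was measured by stranded total RNA-seq of dorsal hippocampus from 3 Control-ASO and 3 Snhg11-ASO mice. The authors deposited raw read counts per gene for each sample, unstranded and for each strand, as written by STAR (2.5.2a in the submitters' processing notes). The paper's methods name another counter, and its removal of 1 unnamed Snhg11-ASO sample was not repeated here. Per the labels each file is 1 mouse, and 0 columns of values were left unused for lack of a sample. Counts of the reverse strand were used. Pairs on no single gene (43.5% to 51.4%) entered neither library totals nor tests. Pairs that map to several places are not counted, so similar chemokine genes can be undercounted. Symbols and positions came from GENCODE M21 (GRCm38, 55141 of 55401 identifiers matched). 

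Low genes were removed with filterByExpr (minimum count 10), leaving 19969, and the quasi-likelihood test of edgeR 4.0.16 (R 4.3.3) compared the groups after TMM scaling, with a threshold of 0.05 on Benjamini-Hochberg adjusted p. DESeq2 1.42.0 was an alternative. The common biological coefficient of variation was 0.266. Standard errors are the log2 fold change divided by the root of the F statistic. CPM are counts scaled to the library total on tested genes times its TMM factor (0.982 to 1.02), and centred log2 CPM used a prior count of 2. A floor of 3 counts was 0.0687 to 0.102 CPM, and intervals are 95% exact binomial. The fits were tested on simulated data. Same-numbered samples deviated together (correlations 0.297, 0.179 and 0.103), so the numbers were taken as pairs in an alternative fit. This pairing comes from the values and not from the labels. Members and lists were chosen with earlier results of these data known. Genes were named by rule: the members, *Snhg11*, their receptors and inhibitors, cluster neighbours, the extremes of each further list and the 6 nearest genes by likeness. *Ifng* was added after its values were seen. Of the extremes, mainly those with the highest log2 fold changes are printed and few of the lowest, so the examples lean towards higher values. Some genes and sequences are not reported here. Alternatives were another tool, scaling, strand and filter, genomic span offsets, mitochondrial genes left out, the replicate block and leaving out each sample.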

Additional observations from a re-analysis of the deposited data

How the results depend on the processing

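DESeq2 called 251 genes where edgeR called 0 of 19969 (734 higher and 885 lower at an unadjusted p under 0.05). Of the members, 1 was called by DESeq2 (*Ccl2*), and 0 by edgeR with any 1 sample left out. Over all genes edgeR then called 0 to 2. Without Snhg11-ASO replicates 1, 2 and 3 DESeq2 called 346, 268 and 216 genes in either direction, with 0, 1 and 4 members (the 4 were *Ccl2*, *Ccl3*, *Cxcl10* and *Tnf*). Without Snhg11-ASO replicate 1 it gave no adjusted p for members that include *Ccl3*, *Ccl4*, *Il1b* and *Tnf*. These could not be called there, so the 0 is not comparable with the other counts of members. Members higher at an unadjusted p under 0.05 numbered 5, and 2 to 5 with 1 sample left out in edgeR (3 without Snhg11-ASO replicate 1 in DESeq2). Of all genes, 3.68% were higher in edgeR with all samples and 4.41% without Snhg11-ASO replicate 1. Members without overlap numbered 4, and 3 to 6 over the alternatives. Of all genes, 7.73% lay above the controls with all samples and 14.7% without Snhg11-ASO replicate 1. Counts with a sample left out are therefore not comparable with the 4. Shares for the other alternatives are not given here. The adjusted p of *Ccl2* ranged from 1.0e-04 to 0.979.

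With 1 sample left out in edgeR, log2 fold changes ran from -0.78 to 7.31 for *Arg1*, -0.21 to 3.25 for *Ccl6*, -0.52 to 2.92 for *Ccl9*, -0.62 to 5.17 for *Chil3*, -1.13 to 2.81 for *Il1b*, -0.48 to 4.12 for *Il1r2*, -0.073 to 1.05 for *Il6ra*, -1.43 to 5.14 for *S100a8* and -0.91 to 3.67 for *S100a9*, each lowest without Snhg11-ASO replicate 1. In DESeq2 without that sample they were -0.80, -0.22, -0.53, -0.63, -1.16, -0.50, -0.074, -1.47 and -0.92 in the same order. The cause was not tested.

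With the replicate block, 0 genes were called and no call at an adjusted p of 0.05 changed. At an unadjusted p under 0.05, 5 members were higher, with *Ccl12* in and *Cxcl16* out. The share of all genes at that p is not given here for this fit. Counts under 15 in samples of *Ccl4*, *Ccl5*, *Il1b*, *Il6* and *Tnf* limit what can be read there.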

Other observations

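Of 10 genes of reactive astrocytes, all had log2 fold changes above 0. Their median was 1.46 over all samples and 0.89 without Snhg11-ASO replicate 1. At an unadjusted edgeR p under 0.05, 6 and 5 of them were higher, where 3.68% and 4.41% of all genes were. None of the 10 passed at an adjusted p of 0.05. Of 11 activated microglia genes, 10 had log2 fold changes above 0, and the list median was 0.62 with all samples and 0.63 without that sample. Their sums overlapped between the groups: 738, 1067 and 1003 CPM in the Control-ASO mice and 622, 1127 and 1138 CPM in the Snhg11-ASO mice. Snhg11-ASO replicate 1 had the lowest sum. The 8 endothelial genes had a median of 0.03, and 9 genes of hippocampal neurons one of 0.06.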
